A study of Mus musculus with 6 samples.

Results

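The circadian clock genes Clock, Per1, Per2, Per3, Cry1, Cry2, Bhlhe41, Nr1d1, Nr1d2 and Dbp were followed across 6 RNA sequencing libraries of mouse cerebral cortex. They were taken by symbol from the 47728 genes of the deposited count table, and the list was chosen with earlier results of these data known. All 10 members were found and all passed the filter on low counts, as did 17074 genes in all. Of the libraries 3 came from FAD5x mice, an Alzheimer's disease model known for human transgenes with familial mutations under the neuronal Thy1 promoter, and 3 from wildtype C57BL/6 mice, labelled Control. The tissue of both groups was flash frozen cortex. The labels give no transgene allele, age, sex, light schedule or hour of collection, and they do not say whether the libraries of a group are separate animals. The p-values below therefore rest on library-to-library spread alone, part of which may be technical.

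The mammalian clock is a transcriptional feedback loop that runs in nearly every cell. CLOCK pairs with BMAL1 (gene Arntl) and binds E-boxes, which activates the Per, Cry, Nr1d and Dbp genes. PER and CRY proteins then enter the nucleus and repress this pair, and BHLHE41 (DEC2) competes for the same E-boxes. The REV-ERB receptors encoded by Nr1d1 and Nr1d2 repress Arntl through ROR elements, and DBP carries the rhythm to output genes through D-boxes. Cortical levels of many of these transcripts are known to depend on time of day, and Per1 also responds to neuronal activity and glucocorticoids.

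Libraries held 17363946 to 24137936 counts, and the members took up 12714 to 22272 of them, with at least 273 counts for any member in any library. Control replicate 1 stood apart from the other 5 libraries, with 3 Xist counts against 10346 to 22631 and 3124 counts in Y-linked genes against at most 9. FAD5x replicate 1 held far more striatal transcript than any other library: its 6 striatal marker genes summed to 1037 CPM, against 92.6 to 203 CPM elsewhere. Meningeal markers differed between the groups: 4 genes summed to 7.46 to 25.2 CPM in FAD5x and 50.5 to 173 CPM in Control. Sums of 4 mural cell markers were 158 to 210 CPM in FAD5x and 207 to 279 CPM in Control. Those of 5 endothelial markers were 135 to 178 CPM and 172 to 225 CPM. Neuronal markers, summed over 8 genes, were present in every library at 6102 to 9006 CPM. The 8 markers of the hypothalamic clock centre and hypothalamus summed to 26.8 to 52.8 CPM, most of it Vip (23.5 to 45.3 CPM in every library), which cortical interneurons also express, and Grp (1.21 to 6.12 CPM). Six6 had no count in any library, Nms had 2 counts from 1 library, and the other 4, Avp, Oxt, Hcrt and Pmch, had at most 17 counts. FAD5x replicates 1 and 2 have related library names. Chi-square per degree of freedom was 42.2 between these 2, and 27.4 and 39.5 between each and FAD5x replicate 3. This measure grows with depth, and replicates 1 and 2 were the deepest libraries, so it cannot show whether they are separate animals. They were kept as separate samples. Levels below are in CPM, each count relative to its library's total after trimmed-mean (TMM) scaling. Each log2 fold change compares FAD5x with Control and is given with its standard error (SE), and a gene is said to have risen or fallen if its adjusted p was below 0.05. In bulk tissue, fewer cells of a type and less RNA per cell cannot be told apart.

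Of the 10 clock genes 1 rose in FAD5x cortex, Bhlhe41, to 2.02-fold its Control level. None fell by edgeR, limma-voom or DESeq2, although 1, Clock, was lower at an unadjusted p below 0.05. Of all 17074 tested genes 3.15% were called, 1.76% as higher and 1.39% as lower. At an unadjusted p below 0.05 there were 4 members, Bhlhe41, Per3 and Cry1 with higher and Clock with lower values, against 21.3% of all tested genes, 11.2% higher and 10.1% lower. FAD5x and Control libraries did not overlap for 5 members, namely those 4 and Cry2, against 27.4% of all tested genes. The fold change was above 0 for 9 of 10 members, as for 51.5% of all genes, and the members' median was 0.20 against 0.02 over all tested genes. The median of the 10 genes above the Control mean was 0.37, 0.14 and 0.12 on the log2 scale in FAD5x libraries 1, 2 and 3. Control libraries lay at 0.02, -0.02 and -0.07, near 0 by construction because the mean is their own.

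**Figure D1:**
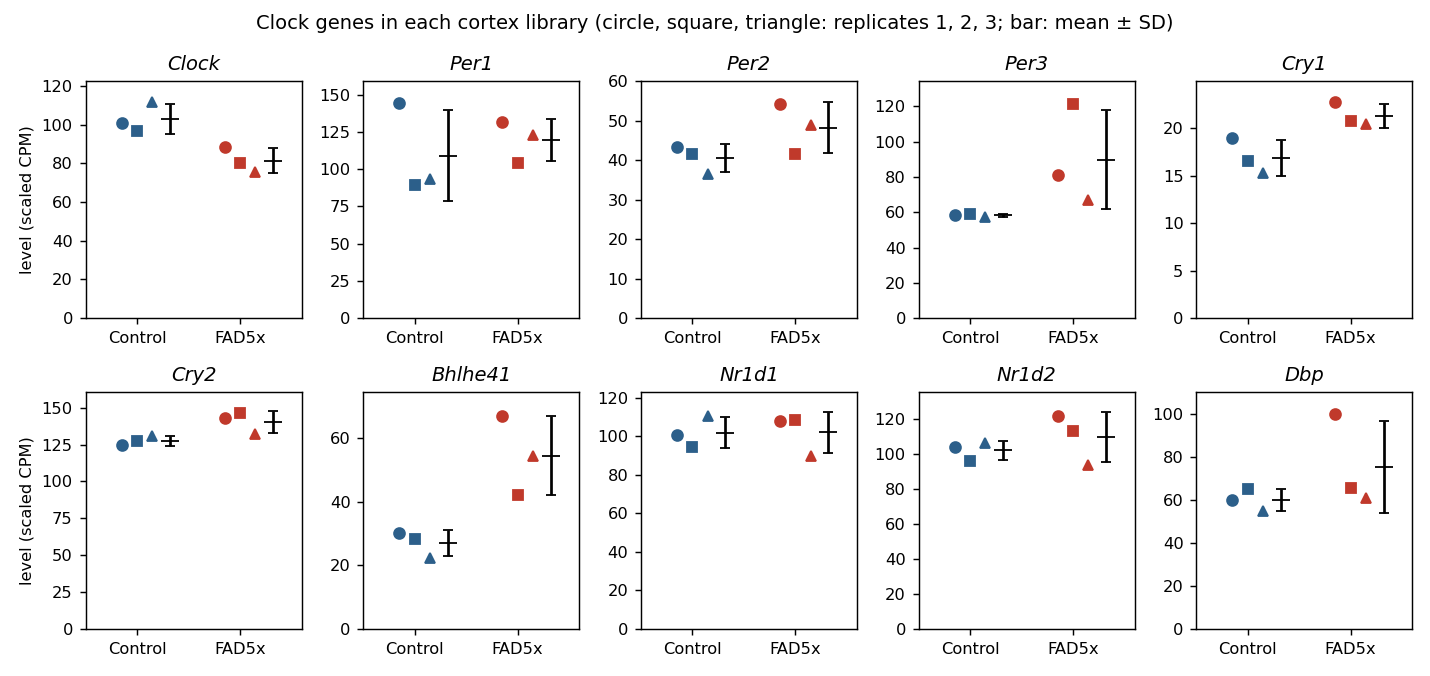
Scaled CPM of each clock gene in the 3 Control (blue) and 3 FAD5x (red) libraries, on linear axes that start at 0, with the mean and SD beside them in black. Bhlhe41 is separated by group, at 22.4 to 30.1 CPM in Control and 42.1 to 66.9 CPM in FAD5x, whereas 1 FAD5x library stands far above the other two for Per3 (121 CPM) and for Dbp (99.9 CPM).

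The promoters of the 3 members with higher values, an unadjusted p below 0.05 and no overlap between the groups are shown. They hold matches to elements known from the loop, as did every other member with a promoter entry except Dbp. A link between these matches and the values was not tested. Sequences are from RefSeq, build GRCm38.p6, minus strand in all 3 cases, from 250 bases before to 50 after the start. Capitals mark the E-box CACGTG, its variant CACGTT (read here on the other strand as AACGTG) and the D-box TTANGTAA. The windows are chr6:145865371-145865670 for Bhlhe41, chr4:151044616-151044915 for Per3 and chr10:85185005-85185304 for Cry1.
Bhlhe41: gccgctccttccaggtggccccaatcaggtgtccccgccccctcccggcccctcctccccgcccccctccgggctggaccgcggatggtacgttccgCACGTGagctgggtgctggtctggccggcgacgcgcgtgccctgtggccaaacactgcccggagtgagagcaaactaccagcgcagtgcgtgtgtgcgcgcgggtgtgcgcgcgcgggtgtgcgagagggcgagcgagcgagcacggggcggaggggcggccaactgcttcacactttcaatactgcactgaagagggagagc
Per3: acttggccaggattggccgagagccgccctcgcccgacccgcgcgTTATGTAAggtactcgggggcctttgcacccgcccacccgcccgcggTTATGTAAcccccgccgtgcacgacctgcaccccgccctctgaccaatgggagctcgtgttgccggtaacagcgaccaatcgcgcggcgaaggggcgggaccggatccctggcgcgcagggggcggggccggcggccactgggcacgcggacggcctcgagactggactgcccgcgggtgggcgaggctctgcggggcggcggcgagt
Cry1: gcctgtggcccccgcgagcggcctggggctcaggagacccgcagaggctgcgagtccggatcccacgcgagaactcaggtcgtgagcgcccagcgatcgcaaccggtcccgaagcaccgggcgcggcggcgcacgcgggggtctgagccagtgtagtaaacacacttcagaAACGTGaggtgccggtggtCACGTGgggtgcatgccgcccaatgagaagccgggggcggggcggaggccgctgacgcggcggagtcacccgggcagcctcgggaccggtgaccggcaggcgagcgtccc
The Bhlhe41 window held 1 E-box, 153 bases before the start. The Per3 window held 2 copies of the D-box, 205 and 158 bases before the start, and no E-box. The Cry1 window held an E-box 60 and the variant 79 bases before the start.

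Among 9 members with an entry in the promoter table, all but Per2, the E-box was found in the windows of Bhlhe41, Cry1 and Per1, and in 7.15% of the 32851 windows of the table. The variant CACGTT was found for Cry1, Cry2 and Nr1d1, against 4.68% of all windows. The D-box was found for Per3 alone among the members, against 2.32% of all windows. The single hexamer bound by ROR and REV-ERB receptors, AGGTCA, was found for Clock (not at its most upstream start), Nr1d2 and Per1, against 16.3%. The 9 members had 12 windows, with 3 for Clock and 2 for Per1. Counts per member are therefore not on the same footing as shares of windows. The cAMP response element TGACGTCA was in no member window and in 1.79% of all. Its core TGACGT, which the full element contains, was at the second start of Per1 and in 7.51% of all windows. Both strands were searched, a match is a run of letters and not a shown binding site, and the windows leave out more distant elements.

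Values are listed by replicate number, 1 to 3. Clock encodes the histone-acetylating partner of BMAL1 and was the single member with lower values in FAD5x. It had 88.2, 80.3 and 75.8 CPM in the FAD5x libraries and 101, 96.8 and 112 CPM in the Control libraries. Every FAD5x library lay below every Control library. The difference did not pass the test over all genes (log2 fold change -0.34 ± 0.12 SE, 95% interval -0.62 to -0.06, adjusted p = 0.165). Its sign was negative under all 17 alternatives that refit the data, from -0.40 to -0.28.

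The Period genes encode the PER repressors and are known to respond quickly to signals that reset the loop. Per1 had 132, 104 and 123 CPM in the FAD5x libraries and 144, 89.6 and 93.5 CPM in the Control libraries. The highest library of all was Control replicate 1, so the groups overlapped, and the log2 fold change was 0.13 ± 0.20 (adjusted p = 0.748). It was 0.39 without Control replicate 1 and 0.0082 without Control replicate 2. Per2 had 54.4, 41.6 and 49.0 CPM in the FAD5x libraries and 43.4, 41.6 and 36.6 CPM in the Control libraries. FAD5x replicate 2 lay inside the Control range, and the log2 fold change of 0.25 ± 0.14 did not pass (adjusted p = 0.340). Per3 had 81.2, 121 and 66.9 CPM in the FAD5x libraries and 58.5, 58.9 and 57.4 CPM in the Control libraries. The Control libraries were nearly equal and all 3 FAD5x libraries lay above them, with replicate 2 far above the other two. The log2 fold change of Per3 was 0.62 ± 0.20 (adjusted p = 0.138), and without FAD5x replicate 2 it was 0.35 (adjusted p = 0.139).

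Cry1 and Cry2 encode the cryptochromes, the proteins that block the CLOCK and BMAL1 pair most directly. Cry1, the lower of the pair, had 22.7, 20.7 and 20.5 CPM in the FAD5x libraries and 19.0, 16.5 and 15.3 CPM in the Control libraries. The groups did not overlap, but the log2 fold change of 0.33 ± 0.14 did not pass (95% interval 0.01 to 0.66, adjusted p = 0.224). Cry2 had 143, 146 and 132 CPM in the FAD5x libraries and 125, 127 and 131 CPM in the Control libraries. FAD5x replicate 3 and Control replicate 3 were nearly equal, and the log2 fold change was 0.14 ± 0.12 (adjusted p = 0.548).

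Bhlhe41 (ENSMUSG00000030256, chromosome 6) encodes DEC2, a basic helix-loop-helix repressor of E-box genes that is known for its link to sleep length and for its expression in neurons and microglia. It had 66.9, 42.1 and 54.4 CPM in the FAD5x libraries and 30.1, 28.3 and 22.4 CPM in the Control libraries. The lowest FAD5x library was replicate 2, still above the highest Control library. Means were 54.4 ± 12.4 and 26.9 ± 4.06 CPM (SD, n = 3 per group), or a log2 fold change of 1.02 ± 0.19 (95% interval 0.58 to 1.46, edgeR quasi-likelihood test, adjusted p = 0.0315). Among 17074 tested genes it ranked 332 by p-value. The log2 fold change was positive under all 17 alternatives that refit the data, between 0.84 and 1.18, and 10 of the 17 kept the call. It ended without FAD5x replicate 1 (adjusted p = 0.0753) and without Control replicates 1, 2 or 3 (0.101, 0.115 and 0.103), and it ended with library totals only (0.0573) and with a term for Xist or Y-linked counts (0.108), which marks only Control replicate 1, and in 1 further refit.

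Markers of glia moved with Bhlhe41 in part. All 6 microglial markers had fold changes above 0, none called by edgeR, with 4 higher at an unadjusted p below 0.05. Of all tested genes 51.5% lay above 0, 11.2% were higher at that threshold and 3.15% were called. The microglial sum was 622, 279 and 397 CPM in the FAD5x libraries and 222, 338 and 232 CPM in the Control libraries. In FAD5x replicate 2 the microglial sum thus lay within the Control range while Bhlhe41 lay above it. All 7 oligodendrocyte markers had fold changes above 0, of which 1 was called, Mobp, and their sum was 7426, 3812 and 4987 CPM against 2726, 3140 and 3990 CPM. The sums of 7 astrocyte markers overlapped, at 4110 to 6845 CPM in FAD5x and 4496 to 6427 CPM in Control, and 2 of the 7 had fold changes above 0. Of these, Gfap, a filament gene raised in reactive astrocytes, had 1508, 129 and 914 CPM in the FAD5x libraries and 193, 169 and 119 CPM in the Control libraries. Its order within FAD5x was that of Bhlhe41, but replicate 2 lay inside the Control range (log2 fold change 2.41 ± 0.81, adjusted p = 0.168). FAD5x replicate 1, with the highest Bhlhe41, Per2, Cry1 and Dbp, also had the highest striatal, microglial, oligodendrocyte and astrocyte sums. Its astrocyte sum of 6845 CPM included 1508 CPM of Gfap. Aqp4 peaked there too, but Slc1a2, Slc1a3, Gja1 and Aldh1l1 peaked in Control replicate 2 and Aldoc in FAD5x replicate 2. Without FAD5x replicate 1 the log2 fold changes of Per2 and Cry1 were 0.16 and 0.28 (adjusted p = 0.598 and 0.377). Among vascular and meningeal markers, all 4 meningeal, all 4 mural and 3 of 5 endothelial genes had fold changes below 0. Of these, the meningeal Col3a1 and the endothelial Kdr were called lower (adjusted p = 0.00178 and 0.0282). The part of the glial, striatal, vascular and meningeal markers in the clock gene values was not tested.

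Nr1d1 and Nr1d2 encode REV-ERB alpha and beta, haem-binding repressors of Arntl. Nr1d1 had 108, 109 and 89.9 CPM in the FAD5x libraries and 101, 94.5 and 110.4 CPM in the Control libraries. The groups were interleaved, and the log2 fold change was 0.0049 ± 0.13, with an interval of -0.30 to 0.31 that leaves room for changes of that size (adjusted p = 0.989). Nr1d2 had 122, 114 and 93.9 CPM in the FAD5x libraries and 104, 96.1 and 106 CPM in the Control libraries, again interleaved (log2 fold change 0.10 ± 0.14, adjusted p = 0.709). With single libraries left out it ran from 0.02 to 0.21, lowest without FAD5x replicate 1.

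Dbp encodes a PAR-domain transcription factor with one of the strongest daily rhythms of any transcript. It had 99.9, 65.5 and 60.8 CPM in the FAD5x libraries and 60.1, 64.9 and 54.7 CPM in the Control libraries. Only FAD5x replicate 1 was clearly apart. The log2 fold change was 0.33 ± 0.19 (adjusted p = 0.372), and without that library it was 0.08 (adjusted p = 0.807).

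**Figure D2:**
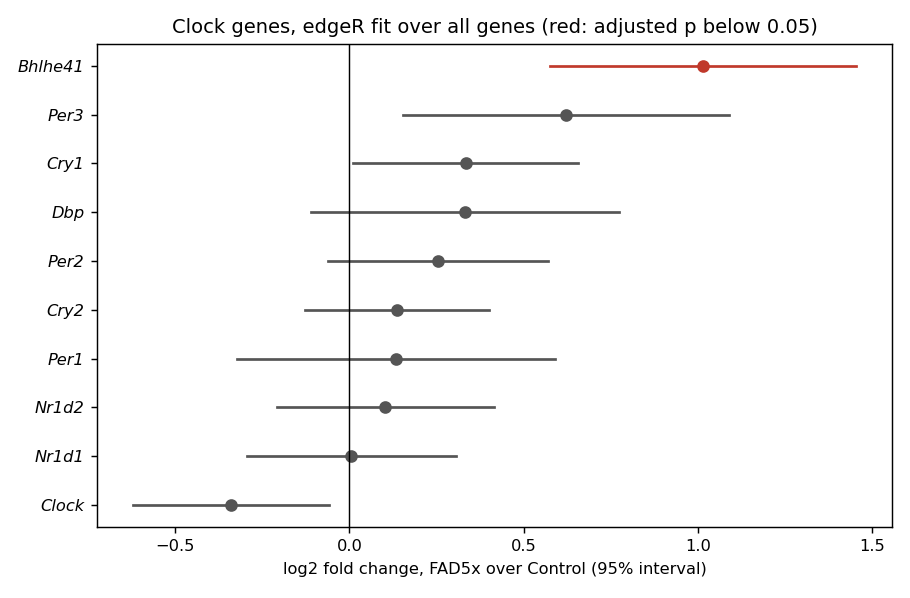
Log2 fold change of each clock gene, FAD5x over Control, from the fit over all genes, with 95% intervals as horizontal lines and the called gene in red. The intervals of Bhlhe41, Per3 and Cry1 lie above 0 and that of Clock below it, but Bhlhe41 alone passed after adjustment.

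**Figure D3:**
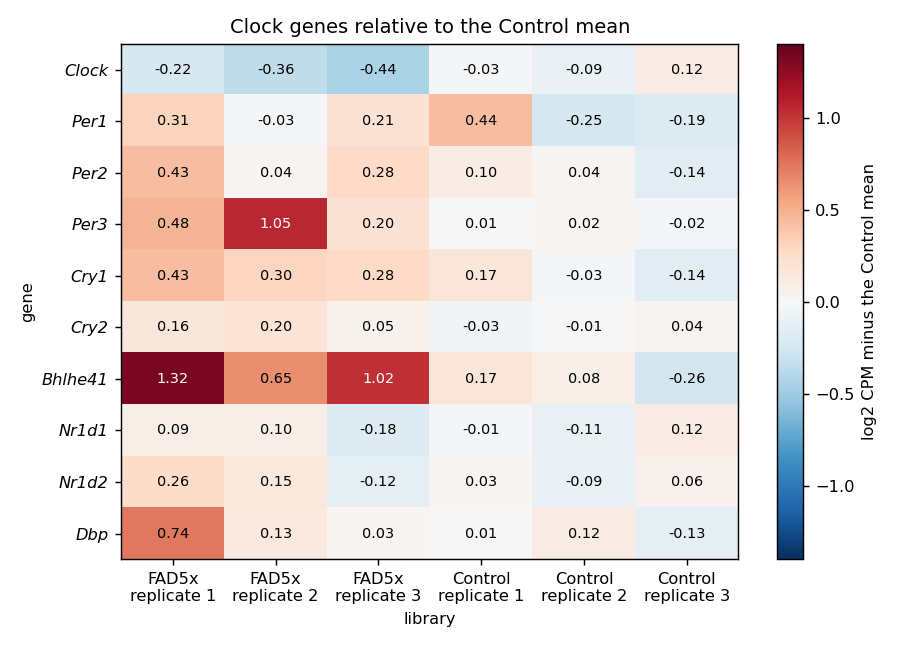
Log2 CPM of each clock gene in each library minus the mean of the Control libraries, with red above and blue below 0. Bhlhe41 is high in all 3 FAD5x libraries (1.32, 0.65 and 1.02), Per3 peaks in FAD5x replicate 2 (1.05) and Dbp in FAD5x replicate 1 (0.74).

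Reads of 4 members could be shared with an overlapping gene, since the sources used here do not give the strand setting of the counting. Exons of the GENCODE annotation on the opposite strand covered 19% of the exonic bases of Bhlhe41 (Gm43909), 18% of Dbp (Sphk2), 8.55% of Nr1d1 (Thra) and 4.67% of Cry2 (D930015M05Rik). Gm43909 had 11 to 27 counts in any library, against 400 to 1622 for Bhlhe41. Thra, a thyroid hormone receptor gene, had 7626 to 14095 counts, more than Nr1d1 in every library.

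Per exonic length, Nr1d1 was the most abundant member in both groups, at 33.2 ± 3.47 CPM per kilobase in FAD5x and 33.1 ± 2.60 in Control (SD, n = 3). In Control, Cry2, Dbp, Per1 and Nr1d2 came next, with means of 18.9 to 20.2 CPM per kilobase. Their libraries overlapped except that every Cry2 library lay above every Nr1d2 library. Clock (7.51 ± 0.56) and Per2 (6.92 ± 0.60) followed with overlapping libraries, and then Per3 (6.07 ± 0.08), Cry1 (5.07 ± 0.57) and Bhlhe41 (4.01 ± 0.60), whose libraries did not overlap. In FAD5x the lower end of the order differed. Bhlhe41 stood at 8.10 ± 1.85 CPM per kilobase, within the spread of Per3 (9.34 ± 2.92) and Per2 (8.25 ± 1.10). Clock came last at 5.93 ± 0.46, with libraries that overlapped those of Cry1 (6.38 ± 0.37).

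Count ratios within a library do not depend on how libraries are scaled. The ratio of Bhlhe41 to Clock was 0.758, 0.524 and 0.718 in FAD5x and 0.299, 0.292 and 0.200 in Control. The ratio of Cry1 to Clock was 0.258, 0.258 and 0.270 in FAD5x and 0.188, 0.171 and 0.137 in Control. For 8 of the 9 other members, all but Per1, the ratio to Clock was higher in every FAD5x library than in every Control library, as it was for 38.1% of all tested genes (41.2% in either direction). The 9 ratios share Clock, whose own values did not overlap, and so are not independent. Between paralogues, Per3 to Per2 was 1.49, 2.91 and 1.37 in FAD5x against 1.35, 1.42 and 1.57 in Control, with overlap. Groups also overlapped for Per1 to Per2, Cry1 to Cry2 and Bhlhe41 to its paralogue Bhlhe40. Nr1d1 to Nr1d2 did not overlap, at 0.886, 0.957 and 0.957 in FAD5x against 0.966, 0.983 and 1.04 in Control. How often other gene pairs separate the groups by so narrow a margin was not computed.

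**Figure D4:**
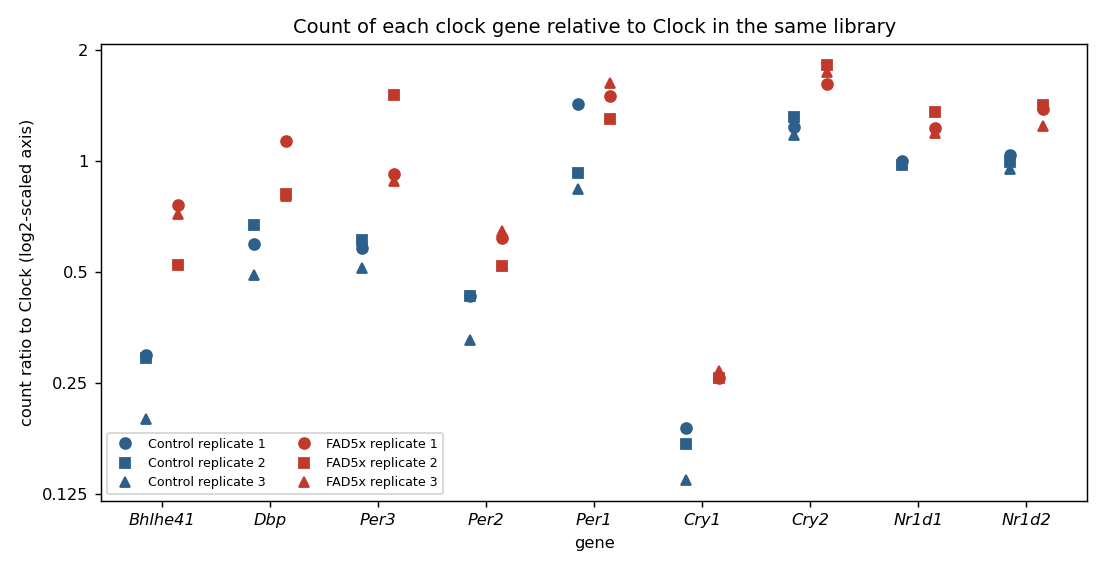
Count of each clock gene divided by the count of Clock in the same library, on a log2-scaled axis, for Control (blue) and FAD5x (red) libraries. Per1 alone has overlapping groups, because Control replicate 1 (1.43) lies above FAD5x replicate 2 (1.30).

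Across the 6 libraries the members did not vary as 1 block. Of 45 pairs of members 34 had a positive Pearson correlation of log2 CPM, given as a description over libraries that share group and depth. Bhlhe41 varied most closely with Cry1 (r = 0.934) and Per2 (r = 0.925), Per3 with Cry2 (r = 0.91), and Nr1d1 with Nr1d2 (r = 0.855). Clock ran opposite to Bhlhe41 (r = -0.805) and Cry1 (r = -0.764). Among 11440 other genes, those most like Bhlhe41 were Fcgr2b (r = 0.997), an inhibitory Fc receptor gene of myeloid cells, and Nek9 (r = 0.996), a kinase gene. Those most like Per3 were Flywch1 (r = 0.995) and Zfp180 (r = 0.994), and those most like Clock were Fam13b (r = 0.997) and Map6d1 (r = 0.996). Those most like Cry2 were Cipc (r = 0.994), a gene known for a CLOCK-interacting repressor, and Eif5a2 (r = 0.993). With 6 libraries such values are common: 324 genes had r above 0.9 with Bhlhe41, and 343 with Per3.

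The rest of the clock machinery was read from a list of 30 further genes of the loops. None was called by edgeR or limma-voom, and DESeq2 called 1 lower, Rora, where it called 1411 genes over all. By edgeR 3 were higher and 3 lower at an unadjusted p below 0.05, as were 11.2% and 10.1% of all tested genes. The list median was -0.045, with 14 genes above 0, and groups did not overlap for 11 of 30, against 27.4% of all tested genes. Tef, a relative of Dbp and the most abundant of the list, had 394, 432 and 288 CPM in the FAD5x libraries and 293, 341 and 322 CPM in the Control libraries (log2 fold change 0.22 ± 0.18, adjusted p = 0.519). Csnk1a1, a kinase that acts on PER proteins, differed by a log2 of -0.13 ± 0.16 (adjusted p = 0.701).

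The next genes of that list were picked with their values in view. Arntl, the partner of Clock, had 19.6, 23.3 and 21.9 CPM in the FAD5x libraries and 26.7, 20.7 and 26.4 CPM in the Control libraries, with overlap (log2 fold change -0.19 ± 0.15, adjusted p = 0.525). Bhlhe40, the paralogue of Bhlhe41, had 112, 182 and 115 CPM in the FAD5x libraries and 113, 97.3 and 95.6 CPM in the Control libraries. Its peak was in FAD5x replicate 2, the library where Bhlhe41 was lowest of its group (log2 fold change 0.42 ± 0.20, adjusted p = 0.273). Rora, an activator of Arntl, stood at 46.7, 53.6 and 33.1 CPM in FAD5x, below its Control values of 71.0, 62.6 and 74.1 CPM (log2 fold change -0.64 ± 0.18, adjusted p = 0.0961). Hlf, another relative of Dbp, peaked in FAD5x replicate 2 at 314 CPM, against 124 to 208 CPM in the other 5 libraries.

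**Figure D5:**
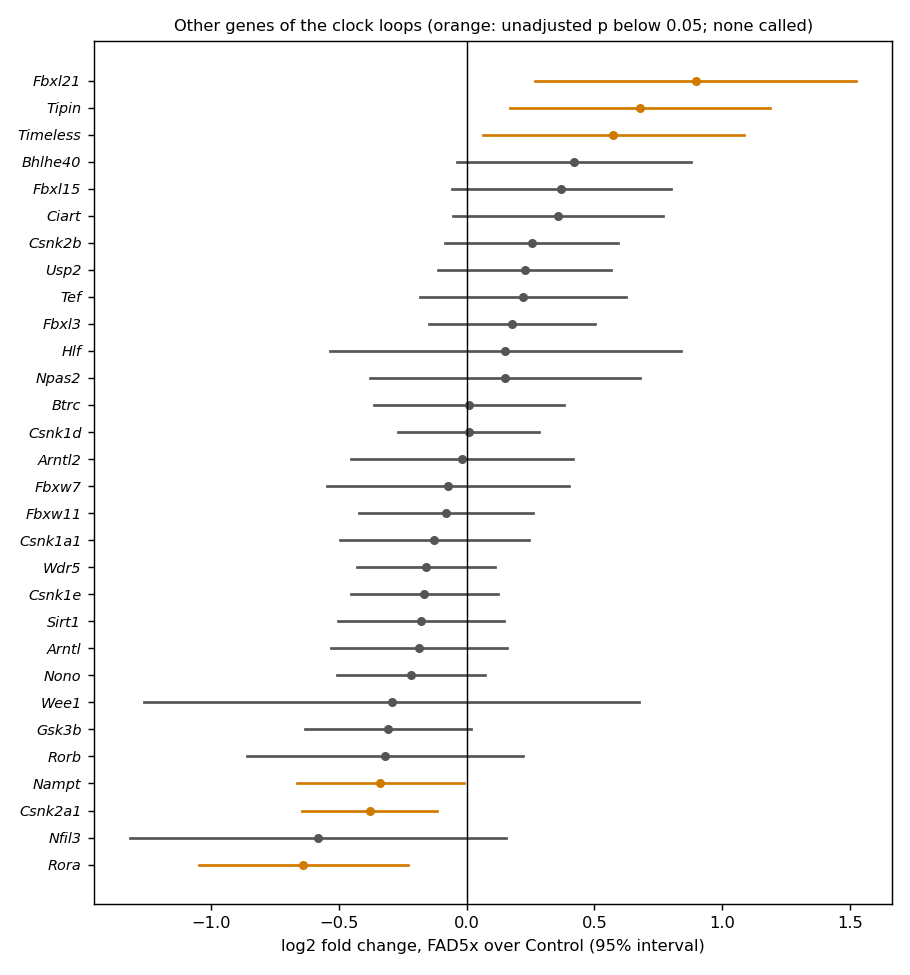
Log2 fold change of 30 further clock loop genes, FAD5x over Control, with 95% intervals as horizontal lines and genes at an unadjusted p below 0.05 in orange. The points run from -0.64 (Rora) to 0.90 (Fbxl21, which had at most 4.62 CPM), and no gene passed after adjustment.

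Signals known to act on Per genes were read from 3 further lists. By edgeR 11.2% of all tested genes were higher and 10.1% lower at an unadjusted p below 0.05, and DESeq2 called 1411 of 30247 genes. Of 15 activity-regulated genes none was called by edgeR or limma-voom, and the median was 0.18. Junb was higher at an unadjusted p below 0.05 and was the 1 gene called by DESeq2. The most abundant, Egr1, differed by a log2 of -0.06 ± 0.16 (adjusted p = 0.881) and Arc by 0.42 ± 0.46 (adjusted p = 0.650). Of 14 glucocorticoid-responsive genes none was called by edgeR or limma-voom, and the median was 0.08. By edgeR 2 were higher at an unadjusted p below 0.05, and DESeq2 called 1, Plin4. Mt1, a metallothionein, differed by a log2 of 0.29 ± 0.17 (adjusted p = 0.377) and Klf9, a transcription factor, by -0.48 ± 0.29 (adjusted p = 0.391). Without FAD5x replicate 2, 4 genes of this list were called, Plin4 higher and Klf9, Tsc22d3 and Zbtb16 lower. Of 9 temperature-sensitive genes none was called by edgeR or limma-voom, and the median was 0.09. By edgeR 2 were higher and 1 lower at an unadjusted p below 0.05, and DESeq2 called those 3, Hspa1a and Hspa1b higher and Hspa5 lower. Hspa8 and Hsp90aa1, the most abundant chaperones of the list, had log2 fold changes of -0.06 ± 0.18 and -0.09 ± 0.17 (adjusted p = 0.879 and 0.815).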

How the data were processed

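The authors deposited raw counts per gene, keyed by Ensembl identifier, with 1 column per library. Per the submitters' processing notes, cutadapt, STAR 2.7.11b, featureCounts, edgeR 3.38.4, limma and build GRCm39 were used, with no role or order given, and library preparation and strand setting are not given in the sources used here. Of 47729 lines 1 was dropped for a non-numeric cell. Symbols came from GENCODE by identifier (47223 matched, 505 not), and exonic lengths from its annotation of an earlier build.

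Groups came from the treatment label and columns from the library names. Genes were filtered with filterByExpr, scaled by the trimmed mean of M values and tested two-sided with the robust quasi-likelihood F-test of edgeR 4.0.16 in R 4.3.3, with Benjamini-Hochberg adjustment over all tested genes and a threshold of 0.05. The biological coefficient of variation was 23.3%. Correlations used log2 CPM with a prior count of 2. The steps were tested on simulated counts. Alternatives were limma-voom (limma 3.58.1), DESeq2 1.42.0, other scalings, filters and thresholds, a replicate block, a term for Xist or Y-linked counts and each library left out, and 2 were added after the data were seen: FAD5x replicates 1 and 2 summed, and protein-coding genes only.

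All 10 members are named. Other pathway lists contribute up to 4 called genes each, and lists without a call their 2 most abundant genes. For likeness, the 2 genes with the highest r among named genes with a mean of at least 5 CPM were taken for each member. One further gene of the clock loop list is not reported here. Members and lists were chosen with earlier results of these data known.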

Additional observations from a re-analysis of the deposited data

How the results depend on the processing

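Of the 10 clock genes 9 kept the sign of their fold change under all 17 alternatives that refit the data. The exception was Nr1d1, close to 0 throughout, with -0.0014 by DESeq2, -0.00076 with RLE size factors, -0.017 with library totals only, -0.0029 with the Xist or Y-linked term and -0.048 with FAD5x replicates 1 and 2 summed, and -0.048 to 0.092 with single libraries left out.

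Single libraries left out gave 81 to 989 called genes over all, 0 to 1 clock genes, 0 to 1 other clock loop genes, 0 activity-regulated, 0 to 4 glucocorticoid-responsive and 0 to 1 temperature-sensitive genes. The direction turned for Hspa8 (-0.21 to 0.022), Arc (-0.14 to 0.69), Egr1 (-0.17 to 0.086) and Hsp90aa1 (-0.21 to 0.0068).

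Of the temperature-sensitive genes DESeq2 called 3, the summed library 2, and library totals only, no filter and a threshold of 0.1 each 1. Of the other clock loop genes DESeq2, no filter and the threshold of 0.1 each called 1, Rora. The same 3 settings, upper-quartile scaling and the summed library called 1 activity-regulated gene, Junb, and DESeq2, the threshold of 0.1 and the summed library 1 glucocorticoid-responsive gene, Plin4. Library totals only and the Xist or Y-linked term called 0 clock genes. The cause was not tested. Against 537 genes over all, DESeq2 called 1411, a fit without the low-count filter 1063, a threshold of 0.1 gave 1251, a log2 of at least 1 left 321, and the Xist or Y-linked term left 94.

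Same-numbered libraries did not deviate together (r = -0.043, -0.093 and -0.305). With 3 libraries per group these values cannot decide whether the numbers mark a shared batch. With the replicate block 72 genes and 0 clock genes were called, and Bhlhe41 stood at a log2 fold change of 1.00 with adjusted p = 0.105. Depth limits Fbxl21 most among the clock genes shown, at 1.90 to 4.62 CPM.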

Other observations

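Several genes outside the 10 clock genes shared the maximum of Per3 in FAD5x replicate 2, a choice made with their values in view. Plin4, a lipid droplet gene that responds to glucocorticoids, stood at 37.7 CPM in that library, against 6.18 and 6.74 CPM in the other FAD5x libraries and 1.18 to 1.82 CPM in Control. Fkbp5, a glucocorticoid-induced chaperone gene, stood at 59.6 CPM there, against 27.3 to 36.7 CPM in the other 5 libraries. Wee1, a cell cycle kinase gene known as a clock output, stood at 19.7 CPM there, against 9.93 and 5.22 CPM in the other FAD5x libraries and 13.1 to 16.1 CPM in Control. Some of the 14 glucocorticoid-responsive genes shared the maximum in FAD5x replicate 2, but most peaked elsewhere. Among the latter were Klf9 (227 CPM) and Zbtb16 (52.9 CPM) in Control replicate 3 and Cdkn1a (67.8 CPM) in Control replicate 1.

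Per1 was highest in Control replicate 1, as were Sik1, a kinase gene induced by cAMP (37.3 CPM, against 10.7 to 24.1 CPM elsewhere), and Fos (33.1 CPM, against 13.6 to 29.4 CPM elsewhere), also chosen after their values were seen. In the other 2 Control libraries Per1 stood at 89.6 and 93.5 CPM, and without Control replicate 1 its log2 fold change was 0.39 (adjusted p = 0.352). Some of the 15 activity-regulated genes shared the maximum in Control replicate 1, but most peaked elsewhere. Among the latter were Arc (264 CPM in FAD5x replicate 2) and Egr1 (325 CPM in Control replicate 3).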
